A study of Mus musculus with 6 samples.

Results

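The 34 genes described here encode proteins that take in, fold, oxidise, export or dispose of chains in the endoplasmic reticulum (ER), together with sensors of ER stress. They were picked by gene symbol from a list drawn up with earlier results of these data known, so the choice was not independent of the data. All 34 had a row among the 24061 genes of the count table, 2 of them (Ero1l, now Ero1a, and Ero1lb, now Ero1b) under a newer symbol. All 34 also passed the filter on low counts. The libraries came from cultured lung fibroblasts of TGF-alpha transgenic mice, labelled as resident fibroblasts of fibrotic lung. In 3 libraries (numbered 4 to 6) the cells had received a stealth siRNA against Wt1, a zinc finger transcription factor, and in the other 3 (numbered 1 to 3) a stealth control siRNA; all 6 carried the transgene. The labels leave out the promoter of the transgene, the age and number of the mice, the siRNA sequences and the time between transfection and harvest. Nothing in them tells separate cultures or mice from repeated libraries, so each p-value reflects the spread among these 6 libraries, which may be technical.

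Proteins bound for secretion or for membranes enter the ER through the Sec61 channel, fold there with the help of chaperones and disulfide isomerases, and leave in vesicles coated with COPII. Chains that fail to fold are drawn back into the cytosol and degraded, a route called ER-associated degradation. When unfolded chains accumulate, the sensors IRE1 (Ern1), ATF6 and PERK start the unfolded protein response, which raises the transcription of many of these genes. Fibroblasts secrete collagen and other matrix proteins and are known for a high demand on this machinery.

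Total counts were 27512156 to 32085698 in the Wt1 siRNA libraries and 26141921 to 30399809 in the control siRNA libraries. Wt1 itself stood at 11.4, 8.63 and 7.92 counts-per-million (CPM) in Wt1 siRNA libraries 4 to 6, against 48.8, 55.7 and 51.5 CPM in control libraries 1 to 3 (log2 fold change -2.48 ± 0.16, SE; edgeR adjusted p = 5.98e-06). The 7 fibroblast markers summed to 25200 to 32500 CPM after Wt1 siRNA and 13100 to 20100 CPM with control siRNA, most of it from Col1a1 and Col1a2. The members of that list did not move together: Col1a1, Col1a2, Dcn and Lum were higher (log2 fold changes 1.13, 0.74, 0.63 and 0.67), Pdgfra was lower at 523 ± 96.4 CPM after Wt1 siRNA and 1181 ± 70.9 CPM with control siRNA (-1.17, edgeR adjusted p = 1.48e-04), and Pdgfrb and Thy1 did not pass. The summed level of 6 leukocyte markers was 10.3 to 15.0 CPM after Wt1 siRNA and 21.2 to 28.0 CPM with control siRNA, and Cd14, lower at -1.15 on the log2 scale, was the only one of them called. The 5 endothelial markers summed to 65.3 to 78.4 CPM after Wt1 siRNA and 78.6 to 98.1 CPM with control siRNA, with Kdr as the only one called (-0.88). The 7 epithelial markers summed to 75.9 to 88.4 CPM after Wt1 siRNA and 59.4 to 81.0 CPM with control siRNA, with Krt19 higher (1.12) and Krt18 lower (-0.59). The 4 smooth muscle or pericyte markers, none of them called, summed to 248 to 314 CPM after Wt1 siRNA and 289 to 340 CPM with control siRNA. The 4 mesothelial markers, Wt1 among them, summed to 60.6 to 84.4 CPM after Wt1 siRNA and 150 to 188 CPM with control siRNA. Of these Wt1, Lrrn4 and Upk3b were lower (-2.48, -2.10 and -2.16), whereas Msln was higher at 38.8 ± 7.32 CPM after Wt1 siRNA and 21.3 ± 1.22 CPM with control siRNA (0.87, edgeR adjusted p = 0.002). Scgb1a1, a marker of airway club cells, and Mzb1, a marker of plasma cells, had 0 counts in all 6 libraries. Plasma cells are rich in ER proteins. The 5 plasma cell markers summed to 150 to 183 CPM after Wt1 siRNA and 164 to 222 CPM with control siRNA. Of this Sdc1, not limited to plasma cells, made up 143 to 180 and 162 to 222 CPM. Jchain, named after its values were seen, had 7.03, 0 and 2.82 CPM after Wt1 siRNA. With control siRNA it had 1.67, 0 and 0 CPM, and it did not pass. Tnfrsf17 and Irf4 were too low to be tested. The part of these shifts in the results below was not tested. In such bulk samples, fewer cells of a type and less RNA per cell cannot be told apart.

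The 34 genes did not move as 1 block. After Wt1 siRNA, Ero1l, Herpud1, Hspa5 and Derl1 rose, while Sec61b, Dnajb11, Hsp90b1, Pdia3 and Dnajc3 fell, and the other 25 did not pass the test. The test was edgeR's quasi-likelihood test over all genes, with a Benjamini-Hochberg adjusted p below 0.05 as the threshold. The 4 higher members were 11.8% of the 34, against 9.05% higher among all 14190 genes tested, and the 5 lower members were 14.7%, against 10.3%. Called in either direction were 26.5% of the members and 19.3% of all genes. Over all genes these were 1284 higher and 1459 lower, against 855 and 1829 with library size scaling, which left the members' counts at 4 and 5. The median log2 fold change (Wt1 siRNA over control siRNA) was 0.07 over the members and 0.00 over all genes (-0.02 and -0.08 with library size scaling). It was positive in 19 members and negative in 15, and above 0 in 50.4% of all genes. In 15 members, or 44.1%, no Wt1 siRNA library lay within the range of the controls or the reverse, 8 of them higher and 7 lower; the same held for 36.4% of all genes, 18.1% higher and 18.3% lower. At an unadjusted p below 0.05 there were 7 higher and 5 lower members, against 2208 higher and 2343 lower of all 14190 genes. Only 2 members were lower when control library 1 or 3, or library 5 or 6 of the Wt1 siRNA group, was left out, and 0 when library 4 was left out. Calls fell over all genes in the same fits: 1132, 1025, 1071 and 1289 genes were lower without library 1, 3, 5 and 6 and 785 without library 4, against 1459 with all 6.

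**Figure D1:**
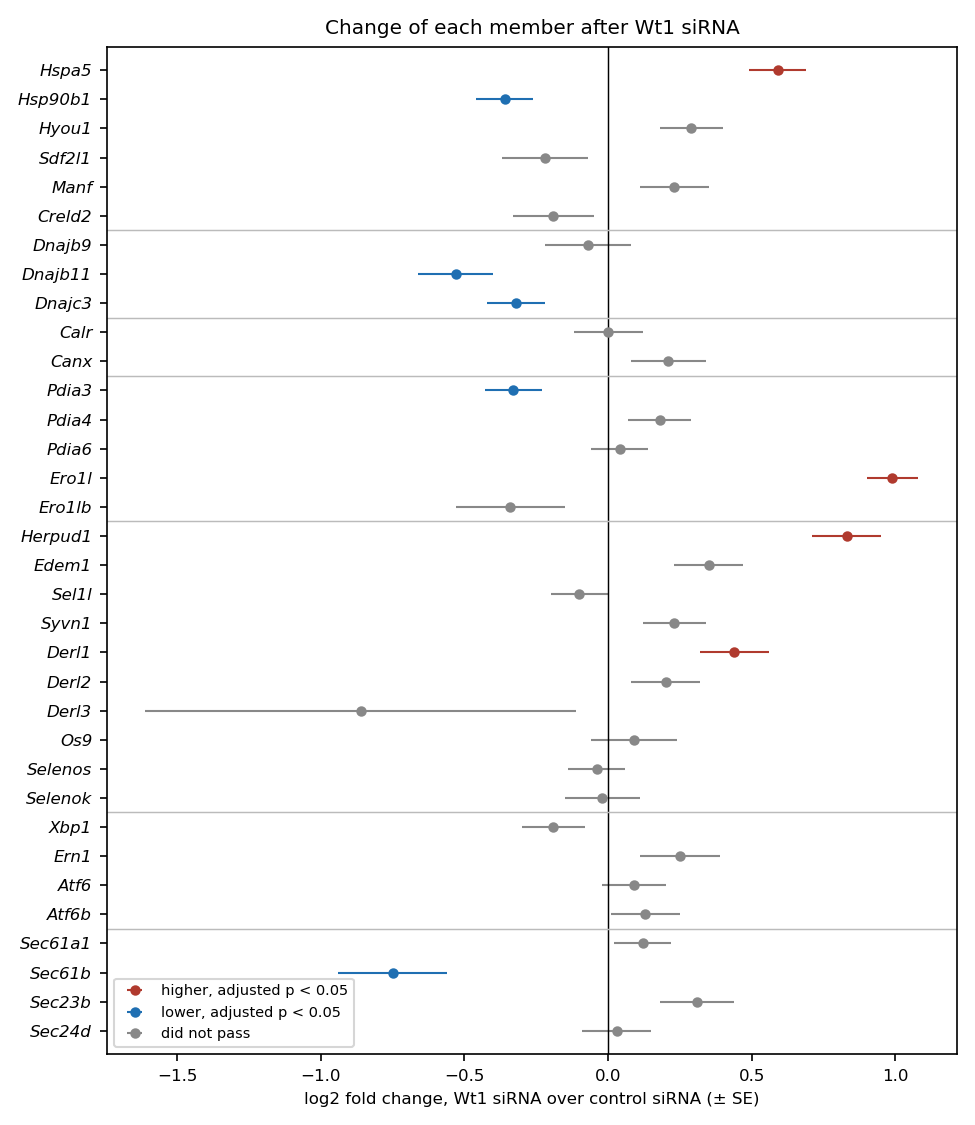
Each point is the log2 fold change of a member (Wt1 siRNA over control siRNA, horizontal axis) with its standard error, ordered by role, with lines between roles. Ero1l at 0.99 lies farthest to the right, Derl3 at -0.86 has the widest error, and called genes of both directions occur within the luminal chaperones and within the isomerases.

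The promoters of 4 members are shown because their changes differed while ER stress elements are known from genes of this kind: Hspa5 and Herpud1 rose, Hsp90b1 fell, and Ero1l had the largest rise. The sequences are the 250 bases before the annotated start in RefSeq (GRCm38.p6), read 5′ to 3′ along the gene. Capitals mark matches to 4 motifs, on either strand. The ER stress response element (ERSE) is CCAAT and CCACG separated by 9 bases, and ERSE-II is ATTGG and CCACG separated by 1 base; both are known as sites of ATF6 and were described from promoters of such genes, so their presence here is no independent observation. TGACGTG is the core of sites for the ATF6 and CREB families and, where a G follows it, holds CCACG on the other strand. TGATGNAA is a core of composite sites of ATF4 with C/EBP proteins.
Hspa5 (chr2:34771840-34772089, plus strand): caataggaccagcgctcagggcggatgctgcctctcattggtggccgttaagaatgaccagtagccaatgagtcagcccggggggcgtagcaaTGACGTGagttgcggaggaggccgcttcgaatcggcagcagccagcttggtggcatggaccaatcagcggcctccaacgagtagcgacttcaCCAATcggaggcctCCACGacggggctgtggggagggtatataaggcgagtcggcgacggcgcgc
Herpud1 (chr8:94386179-94386428, plus strand): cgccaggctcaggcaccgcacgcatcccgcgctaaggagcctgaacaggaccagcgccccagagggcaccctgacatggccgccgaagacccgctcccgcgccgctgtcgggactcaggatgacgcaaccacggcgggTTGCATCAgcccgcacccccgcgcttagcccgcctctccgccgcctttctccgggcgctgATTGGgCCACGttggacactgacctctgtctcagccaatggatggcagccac
Hsp90b1 (chr10:86705445-86705694, minus strand): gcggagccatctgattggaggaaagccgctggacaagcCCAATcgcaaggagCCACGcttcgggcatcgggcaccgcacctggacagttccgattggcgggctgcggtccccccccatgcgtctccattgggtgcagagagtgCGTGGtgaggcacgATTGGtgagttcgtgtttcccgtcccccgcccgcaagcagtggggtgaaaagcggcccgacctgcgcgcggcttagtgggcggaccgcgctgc
Ero1l (chr14:45318573-45318822, minus strand): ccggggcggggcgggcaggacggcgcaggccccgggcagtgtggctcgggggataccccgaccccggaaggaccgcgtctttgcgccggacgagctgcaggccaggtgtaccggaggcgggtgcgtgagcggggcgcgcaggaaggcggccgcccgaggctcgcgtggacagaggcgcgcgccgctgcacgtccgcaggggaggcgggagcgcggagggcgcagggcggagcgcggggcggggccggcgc

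The Hspa5 stretch held 1 ERSE, starting 65 bases before the start, and TGACGTG at 157 bases before it. Herpud1 held 1 ERSE-II, 52 bases before the start, and TGATGNAA on the reverse strand at 112. Hsp90b1 held 2 ERSEs, at 212 and, on the reverse strand, 107 bases before the start. None of these letters were found in the Ero1l stretch, which says only that they are not in this window.

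Windows of 300 bases, from 250 before to 50 after the start, were available for 29 of the 34 members, the exceptions being Hyou1, Manf, Derl1, Atf6 and Sec61a1. An ERSE was found in 10 of the 29 (34.5%), against 0.137% of 27025 genes with a window and 0.19% of the 11080 tested among them. Those 10 members were Calr, Canx, Creld2, Derl3, Dnajc3, Ero1lb, Hsp90b1, Hspa5, Pdia6 and Syvn1, of which 1 rose, 2 fell and 7 did not pass. ERSE-II was found in Herpud1, which rose, and Dnajb11, which fell, and in 0.0444% of all genes with a window and 0.0722% of those tested. TGACGTG was in 2 members (Hspa5 and Sec24d), against 2.22% of all genes and 3.23% of the genes tested. TGATGNAA was in 1 (Herpud1), against 4.51% of all genes and 2.93% of the genes tested. A further motif, GCGNGGGCG, to which WT1 and EGR proteins bind, was found in 3 of the 29 (Ero1lb, Pdia4 and Sec24d), or 10.3%, against 6.27% of all genes and 12.1% of the genes tested. None of these 3 passed the test. A match is a description of letters, not a shown binding site.

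Among the luminal chaperones, the genes of the main HSP70 and of the HSP90 of the ER went in opposite directions. Hspa5, or BiP, the HSP70 that binds nascent chains and holds the stress sensors inactive, stood at 1327, 1329 and 1210 CPM in Wt1 siRNA libraries 4 to 6, against 902, 820 and 840 CPM in control libraries 1 to 3. All 3 Wt1 siRNA libraries lay above all controls. The means were 1289 ± 68.0 CPM after Wt1 siRNA and 854 ± 42.6 CPM with control siRNA (SD, n = 3 each), a log2 fold change of 0.59 ± 0.10 (SE; edgeR adjusted p = 0.00137). Hsp90b1, or GRP94, an HSP90 with a narrower set of clients such as integrins and Toll-like receptors, stood at 988, 1091 and 939 CPM after Wt1 siRNA, against 1208, 1356 and 1296 CPM with control siRNA. Here all 3 Wt1 siRNA libraries lay below all controls (1006 ± 77.9 against 1287 ± 74.2 CPM, log2 fold change -0.36 ± 0.10, edgeR adjusted p = 0.0277). The Hsp90b1 call did not hold without library 2, 3, 4 or 6 (adjusted p = 0.0511, 0.0672, 0.137 and 0.0882; 0.00529 to 0.137 over 12 alternatives), whereas Hspa5 passed in all 12 (0.51 to 0.64 on the log2 scale). Within a library, where scaling cancels, the reads of Hspa5 were 1.34, 1.22 and 1.29 times those of Hsp90b1 after Wt1 siRNA and 0.746, 0.605 and 0.649 times with control siRNA. This pair was chosen after its values were seen, and no test was made of the ratio. The gene span of Hspa5 overlaps that of Rabepk on the other strand by 1921 bases, a gene with 1.55% as many reads.

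The 4 other luminal members did not pass. Hyou1, the HSP110-type exchange factor of BiP, had 206, 224 and 189 CPM after Wt1 siRNA and 154, 181 and 172 CPM with control siRNA (log2 fold change 0.29 ± 0.11, adjusted p = 0.0916). Its groups did not overlap, although the gap between 189 and 181 CPM was narrow. Manf, a secreted stress-induced protein that binds BiP, had 126, 147 and 140 CPM after Wt1 siRNA and 103, 129 and 119 CPM with control siRNA (adjusted p = 0.201). Sdf2l1, a partner of Dnajb11, averaged 14.4 ± 0.98 CPM after Wt1 siRNA and 16.7 ± 0.833 CPM with control siRNA. Creld2, a stress-induced protein with EGF-like repeats, averaged 24.5 ± 2.08 and 27.8 ± 2.91 CPM in the same order. Their adjusted p-values were 0.361 and 0.383.

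The co-chaperones with a J domain, which stimulate the ATPase of BiP, were lower in 2 of 3 cases, against 10.3% lower over all genes. Dnajb11 (ERdj3), which hands unfolded substrates to BiP, stood at 87.0, 111 and 102 CPM after Wt1 siRNA, against 136, 164 and 135 CPM with control siRNA (log2 fold change -0.53 ± 0.13, adjusted p = 0.0111). Dnajc3 (p58IPK), also known as an inhibitor of the kinase PERK, stood at 134, 143 and 148 CPM after Wt1 siRNA, against 180, 170 and 179 CPM with control siRNA (-0.32 ± 0.10, adjusted p = 0.0433). In both genes all 3 Wt1 siRNA libraries were below all controls. Dnajb9 (ERdj4), which represses IRE1 and assists degradation, averaged 66.2 ± 9.67 CPM after Wt1 siRNA and 69.7 ± 11.6 CPM with control siRNA (adjusted p = 0.787). No J-domain member was higher (0 with edgeR, DESeq2 and limma-voom, and 0 at an unadjusted p below 0.05). The Dnajb11 call was lost without Wt1 siRNA library 4 (adjusted p = 0.0855; 0.00115 to 0.0855 over 12 alternatives). The Dnajc3 call held in 6 of 12 alternatives (adjusted p = 0.0171 to 0.209) and was lost with no filter (0.0599) and without library 1, 3, 4, 5 or 6 (0.108, 0.107, 0.209, 0.105 and 0.0613).

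The reads of Hspa5 were 15.3, 11.9 and 11.8 times those of Dnajb11 after Wt1 siRNA and 6.62, 4.99 and 6.23 times with control siRNA. These ratios were also picked after the values were seen. Hspa5 lay above all controls and Dnajb11 below them, so the ratios could not overlap between the groups and add nothing to the single genes.

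The lectin chaperones, which retain glycoproteins until their glucose is trimmed, did not pass the test. Calr, calreticulin, the soluble one, had 1439, 1634 and 1373 CPM after Wt1 siRNA and 1339, 1736 and 1375 CPM with control siRNA, with control library 2 the highest of all 6 (0.999-fold, adjusted p = 0.995). Canx, calnexin, its membrane-bound relative, had 1186, 1349 and 1072 CPM after Wt1 siRNA and 902, 1211 and 1002 CPM with control siRNA (log2 fold change 0.21 ± 0.13, adjusted p = 0.285). In both genes library 5 was the highest of the Wt1 siRNA libraries and library 2 the highest of the controls. The groups overlapped in both genes. The number called was 0 with edgeR, DESeq2 and limma-voom and at an unadjusted p below 0.05. Over all genes edgeR called 19.3%.

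Among the 5 enzymes of disulfide formation 1 rose, 1 fell (20% each) and 3 did not pass. The shares over all genes were 9.05% higher and 10.3% lower. Ero1l, or ERO1-alpha, the oxidase that passes electrons from disulfide isomerases to oxygen and is also known to be induced by hypoxia, had the largest rise of the 34. It stood at 1143, 1143 and 1074 CPM in Wt1 siRNA libraries 4 to 6, against 565, 546 and 582 CPM in control libraries 1 to 3. The lowest Wt1 siRNA library was well above the highest control. The means were 1120 ± 39.7 CPM after Wt1 siRNA and 564 ± 17.7 CPM with control siRNA (SD, n = 3 each), or 1.98-fold (log2 fold change 0.99 ± 0.09, edgeR adjusted p = 6.4e-05), and 0.90 to 1.02 over the 12 alternatives, all of which passed. Its paralog Ero1lb (ERO1-beta), known mainly from pancreas, was scarce at 9.37 ± 1.73 CPM after Wt1 siRNA and 11.8 ± 1.18 CPM with control siRNA (-0.34 ± 0.19, adjusted p = 0.262).

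Pdia3 (ERp57), the isomerase that works with calreticulin and calnexin on glycoproteins, fell to 715, 702 and 734 CPM after Wt1 siRNA, against 974, 811 and 918 CPM with control siRNA (log2 fold change -0.33 ± 0.10, adjusted p = 0.0391). All 3 Wt1 siRNA libraries were below the lowest control, library 2. The call held in 7 of 12 alternatives (adjusted p = 0.0127 to 0.157) and was lost without library 1, 3, 4, 5 or 6 (0.131, 0.097, 0.157, 0.115 and 0.0653). Pdia4 (ERp72) had 140, 129 and 153 CPM after Wt1 siRNA and 137, 120 and 115 CPM with control siRNA (0.18 ± 0.11, adjusted p = 0.305). Pdia6 (P5), which is known to bind IRE1, had 251, 274 and 269 CPM after Wt1 siRNA and 273, 251 and 247 CPM with control siRNA (0.04 ± 0.10, adjusted p = 0.826). For Pdia4 and Pdia6 the groups overlapped, and Pdia4 shares 77 bases with the microRNA gene Mir704.

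Taking the 5 isomerases and oxidases as a sum, the libraries held 2256, 2259 and 2239 CPM after Wt1 siRNA and 1962, 1740 and 1874 CPM with control siRNA. Ero1l alone made up 1143, 1143 and 1074 CPM of it after Wt1 siRNA and 565, 546 and 582 CPM with control siRNA. Without Ero1l, left out after its values were seen, the sum was lower after Wt1 siRNA. It was then 1113, 1116 and 1165 CPM after Wt1 siRNA and 1397, 1193 and 1292 CPM with control siRNA, most of it from Pdia3. Within a library the reads of Ero1l were 1.60, 1.63 and 1.46 times those of Pdia3 after Wt1 siRNA and 0.580, 0.673 and 0.633 times with control siRNA. This ratio was chosen after its values were seen and is given with no test.

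**Figure D2:**
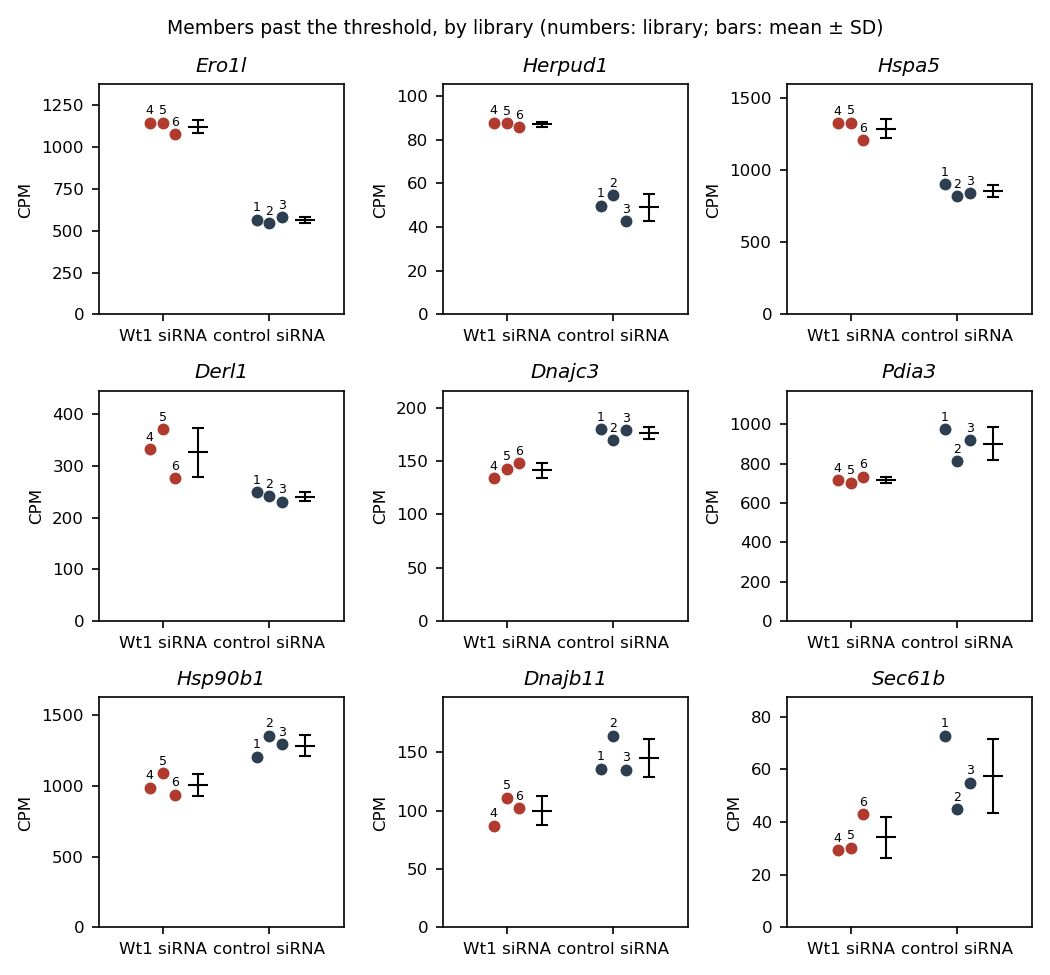
Levels (CPM, axes from 0) of the 9 members past the threshold in each of 6 libraries, numbered at the points, with the mean and SD at the right of each group. The Wt1 siRNA libraries (left) and the control siRNA libraries (right) do not overlap in the 9 panels. Choosing genes by the threshold favours groups that lie apart, so this is no separate result. Over all genes tested the groups did not overlap in 36.4%. The closest approach is in Sec61b, at 43.0 CPM in Wt1 siRNA library 6 and 44.9 CPM in control library 2.

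Of the 10 genes of ER-associated degradation 2 rose (20%), 0 fell and 8 did not pass with edgeR. Over all genes 9.05% were higher and 10.3% lower. DESeq2 and limma-voom each gave 3 higher and 0 lower. At an unadjusted p below 0.05 there were 3 higher and 0 lower, against 2208 and 2343 of all 14190 genes. Herpud1 (HERP), a stress-induced membrane protein that assembles the HRD1 ubiquitin ligase complex, stood at 87.8, 87.5 and 85.8 CPM after Wt1 siRNA, against 49.8, 54.7 and 42.6 CPM with control siRNA. All 3 Wt1 siRNA libraries lay above all controls, with a narrower spread (SD 1.08 and 6.07 CPM, Wt1 siRNA before control siRNA). The log2 fold change was 0.83 ± 0.12 (1.78-fold, edgeR adjusted p = 6.37e-04), and the gene passed in all 12 alternatives (0.74 to 0.91).

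The derlins are membrane proteins through which chains are drawn back to the cytosol. Derl1 stood at 333, 371 and 276 CPM after Wt1 siRNA, against 249, 241 and 231 CPM with control siRNA (log2 fold change 0.44 ± 0.12, adjusted p = 0.0215). The groups did not overlap, but the Wt1 siRNA libraries were far more spread than the controls (327 ± 47.6 and 240 ± 8.60 CPM). The call was lost without library 3, 4 or 5 (adjusted p = 0.0745, 0.0992 and 0.0923; 0.00381 to 0.0992 over 12 alternatives). Derl2 averaged 87.5 ± 9.63 CPM after Wt1 siRNA and 76.0 ± 8.03 CPM with control siRNA (0.20 ± 0.12, adjusted p = 0.286). Derl3, known from secretory organs, was close to the floor at 0.558, 0.217 and 0.344 CPM after Wt1 siRNA and 0.710, 0.950 and 0.376 CPM with control siRNA, where 3 counts are worth 0.0935 to 0.115 CPM. Its log2 fold change of -0.86 ± 0.75 did not pass (adjusted p = 0.474), and at this depth a change of that size was not detectable.

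The ligase core itself showed smaller values. Syvn1 (HRD1), the ubiquitin ligase, averaged 75.0 ± 2.69 CPM after Wt1 siRNA and 64.0 ± 5.08 CPM with control siRNA (log2 fold change 0.23 ± 0.11, adjusted p = 0.167). Sel1l, its adaptor, had 226, 222 and 200 CPM after Wt1 siRNA and 232, 235 and 229 CPM with control siRNA (-0.10 ± 0.10, adjusted p = 0.525). In both the groups did not overlap, Syvn1 with Wt1 siRNA above and Sel1l with Wt1 siRNA below, and neither passed. Edem1, which marks misfolded glycoproteins for disposal by trimming mannose, had 148, 127 and 150 CPM after Wt1 siRNA and 111, 101 and 122 CPM with control siRNA (0.35 ± 0.12, adjusted p = 0.0535). It stood just outside the threshold and passed with DESeq2 (0.0295), with limma-voom (0.0462), with no filter (0.0489) and without Wt1 siRNA library 5 (0.0459).

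Os9, a lectin that delivers such glycoproteins to Sel1l, averaged 83.2 ± 7.35 CPM after Wt1 siRNA and 78.2 ± 18.6 CPM with control siRNA, where library 2 stood apart at 99.7 CPM. Selenos (VIMP) and Selenok, selenoproteins that recruit the ATPase p97, averaged 90.9 ± 5.14 and 65.5 ± 3.50 CPM after Wt1 siRNA and 93.5 ± 2.78 and 66.6 ± 9.88 CPM with control siRNA. The adjusted p-values of these 3 genes were 0.747, 0.834 and 0.935. Gene spans of Syvn1 and Derl2 overlap those of Mrpl49 (89 bases) and Mis12 (274 bases) on the opposite strand. Mrpl49 had 40.1% as many reads as Syvn1, and Mis12 had 32.4% as many as Derl2, and without a stated strand setting the reads in the shared bases cannot be assigned.

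The sensors and their factors showed no call (0 with edgeR, DESeq2 and limma-voom, and 0 at an unadjusted p below 0.05). Over all genes edgeR called 19.3%. Xbp1, whose mRNA is spliced by IRE1 into the form that encodes the active factor, had 128, 122 and 131 CPM after Wt1 siRNA and 157, 128 and 151 CPM with control siRNA (log2 fold change -0.19 ± 0.11, adjusted p = 0.25). Counts per gene do not separate the spliced from the unspliced form, so the activity of IRE1 was not measured. Ern1, the IRE1 gene, averaged 37.3 ± 1.71 CPM after Wt1 siRNA and 31.4 ± 4.65 CPM with control siRNA (0.25 ± 0.14, adjusted p = 0.239). Atf6, whose protein is cleaved in the Golgi to release a transcription factor, averaged 101 ± 3.58 and 94.5 ± 8.35 CPM, and its relative Atf6b 38.5 ± 3.71 and 35.1 ± 2.29 CPM, each given with Wt1 siRNA before control siRNA. Their log2 fold changes were 0.09 ± 0.11 and 0.13 ± 0.12 (adjusted p = 0.622 and 0.512).

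In the channel and coat group 1 of 4 genes passed (25%), against 19.3% called over all genes. Sec61b, the beta subunit of the Sec61 channel, fell to 29.2, 30.2 and 43.0 CPM after Wt1 siRNA, against 72.7, 44.9 and 54.9 CPM with control siRNA (log2 fold change -0.75 ± 0.19, adjusted p = 0.0169). The call was lost without library 1, 4 or 5 (adjusted p = 0.0769, 0.0964 and 0.0605; 0.00162 to 0.0964 over 12 alternatives). The pore subunit Sec61a1 had 282, 285 and 279 CPM after Wt1 siRNA and 255, 240 and 283 CPM with control siRNA (0.12 ± 0.10, adjusted p = 0.449), so that its control library 3 lay among the Wt1 siRNA libraries. The COPII inner coat genes were Sec23b, at 38.0 ± 0.628 CPM after Wt1 siRNA and 30.6 ± 4.05 CPM with control siRNA (0.31 ± 0.13, adjusted p = 0.119), and Sec24d, at 158, 133 and 157 CPM after Wt1 siRNA and 160, 131 and 145 CPM with control siRNA (0.03 ± 0.12, adjusted p = 0.885). No gene of this group was higher with edgeR, DESeq2 or limma-voom (0 in each), and 1, Sec23b, was at an unadjusted p below 0.05.

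**Figure D3:**
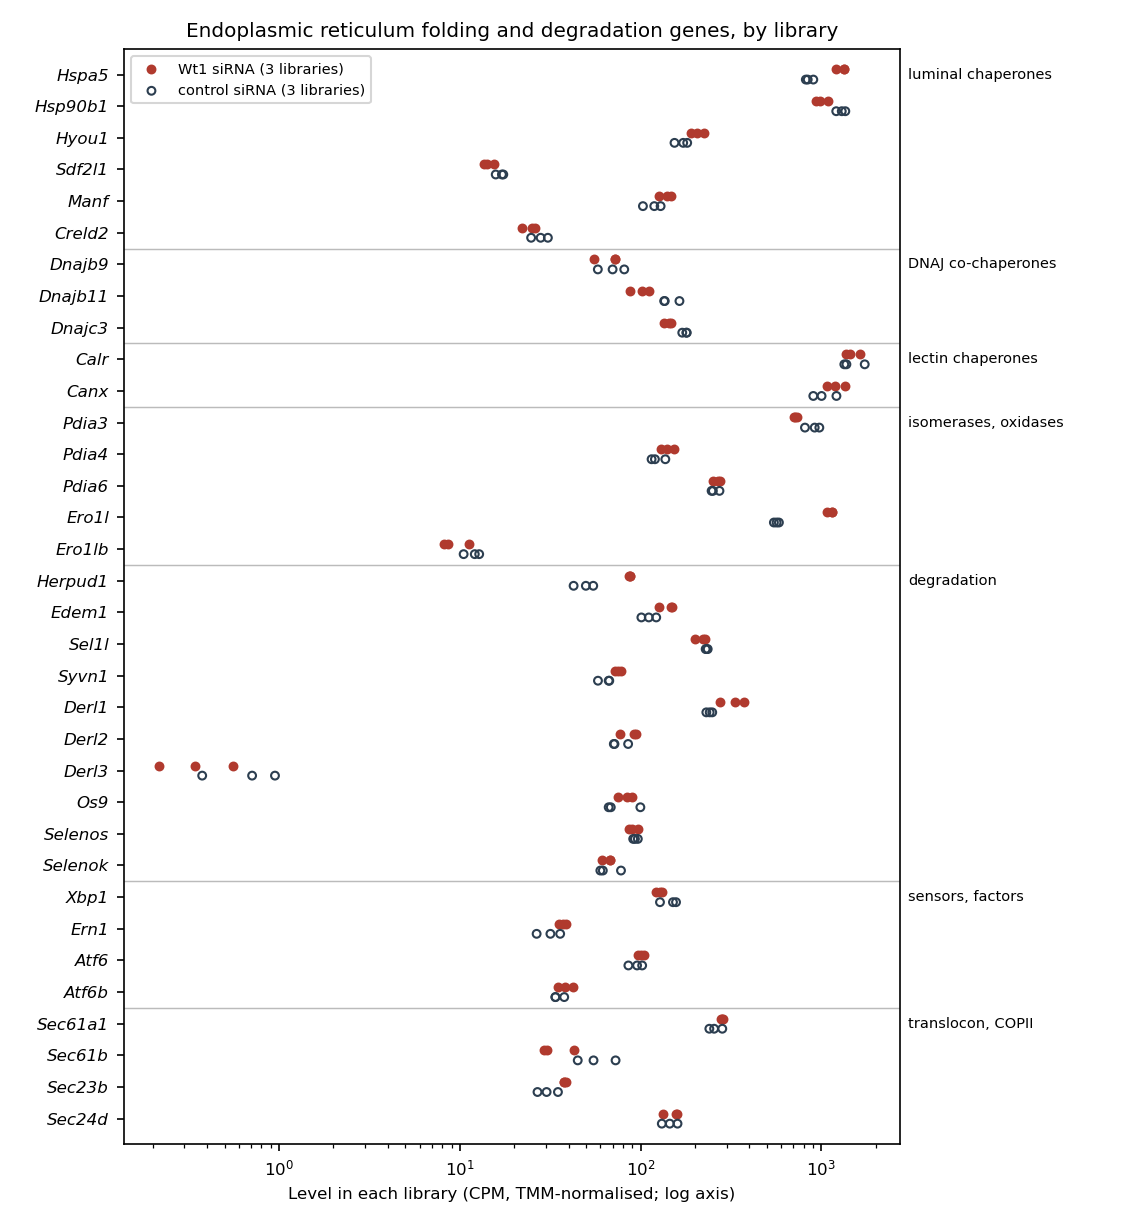
Levels (CPM, log axis) of the 34 members in each library, Wt1 siRNA as filled points above control siRNA as open circles, grouped by role; CPM is not divided by gene length, so levels are to be compared within a gene. Derl3 lies below 1 CPM in all 6 libraries, and Ero1l, Herpud1 and Hspa5 show a gap between the groups that is wide against their spread.

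Levels between genes were compared as CPM per kilobase of annotated exon. By that measure Calr was the most abundant member in both groups, at 679 ± 62.2 after Wt1 siRNA and 679 ± 101 with control siRNA. It was followed by Hsp90b1, at 356 ± 27.6 after Wt1 siRNA and 455 ± 26.3 with control siRNA. Hspa5 stood at 343 ± 18.1 after Wt1 siRNA, close to Hsp90b1 within the spread, and at 228 ± 11.3 with control siRNA, below it. Hspa5 held rank 3 after Wt1 siRNA and rank 5 with control siRNA, behind Pdia3 and Canx in the controls. Ero1l held rank 6 in both groups in spite of its rise (253 ± 8.99 and 128 ± 4.01, Wt1 siRNA before control siRNA). At the low end stood Ern1, Ero1lb and Derl3, at 4.57, 1.44 and 0.283 CPM per kilobase after Wt1 siRNA and 3.85, 1.82 and 0.514 with control siRNA.

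Summed over all 34 genes, the libraries held 9872, 10391 and 9442 CPM after Wt1 siRNA and 8862, 9362 and 8939 CPM with control siRNA. Leaving out Ero1l and Hspa5, chosen after their values were seen, gave 7403, 7919 and 7158 CPM after Wt1 siRNA and 7396, 7996 and 7517 CPM with control siRNA, which overlap. Only genes that rose were left out, while Hsp90b1 and Pdia3, abundant and lower, were kept, so this overlap partly follows from the choice. The 3 J-domain genes summed to 293, 310 and 322 CPM after Wt1 siRNA and 397, 392 and 384 CPM with control siRNA. The 10 degradation genes summed to 1198, 1224 and 1101 CPM after Wt1 siRNA and 1002, 1027 and 1007 CPM with control siRNA. Within the Wt1 siRNA group library 5 was the highest in 17 of the 34 genes, and within the controls library 2 was the highest in 14 and the lowest in 17.

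Other genes of the same routes, in lists chosen for their function with earlier results of these data known, were counted in the same way. Over all genes tested 9.05% were higher and 10.3% lower. Of 25 other folding and glycan-trimming genes 4 were higher and 4 lower (16% each, median log2 fold change -0.04). The smallest p-values among those called were those of Dnajc10 (ERdj5, a reductase that aids degradation; -0.59 ± 0.12), Txndc5 (an isomerase, 0.48 ± 0.10) and Uggt2 (a relative of the glycoprotein folding sensor, 0.66 ± 0.15). Of 24 other degradation genes 6 were higher and 3 lower (25% and 12.5%), with a median of 0.15. Herpud2, the paralog of Herpud1, rose to 84.2, 87.5 and 69.3 CPM after Wt1 siRNA, against 47.9, 45.6 and 48.0 CPM with control siRNA (0.77 ± 0.12, adjusted p = 0.00104). Faf2, which tethers p97 to the membrane, fell by 0.49 ± 0.10 on the log2 scale, and Ube2j1, a ubiquitin-conjugating enzyme of the ER, rose by 0.46 ± 0.10.

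Of 23 other genes of the translocon, signal peptidase and oligosaccharyltransferase 4 were higher and 5 lower (17.4% and 21.7%), with a median of 0.07. Over all genes these shares were 9.05% and 10.3%. Ssr2, a subunit of the translocon-associated protein complex, rose by 0.60 ± 0.10 on the log2 scale. Rpn2, ribophorin II of the oligosaccharyltransferase, and Srpr, the signal recognition particle receptor, had log2 fold changes of -0.52 ± 0.09 and -0.53 ± 0.10. Of 22 other COPII, cargo receptor and KDEL receptor genes 0 were higher and 2 lower (9.09%) with edgeR, with a median of 0.09. The higher ones were 4 with DESeq2, 1 with limma-voom and 5 at an unadjusted p below 0.05. At that unadjusted p 2208 of all 14190 genes were higher. Mcfd2, the partner of the cargo receptor LMAN1, fell to 202, 206 and 218 CPM after Wt1 siRNA, against 385, 386 and 420 CPM with control siRNA (-0.93 ± 0.10, adjusted p = 1.22e-04). Sec24c, a coat subunit, had a log2 fold change of -0.34 ± 0.10.

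Of 10 other stress sensors and membrane-bound factors 3 were higher (30%) and 0 lower with edgeR, with a median of 0.33. Over all genes 9.05% were higher and 10.3% lower. DESeq2, limma-voom and an unadjusted p below 0.05 also gave 0 lower. Wfs1, wolframin, an ER membrane protein induced by stress, rose to 118, 135 and 128 CPM after Wt1 siRNA, against 59.1, 66.9 and 75.3 CPM with control siRNA (0.92 ± 0.12, adjusted p = 3.31e-04). Nfe2l1, an ER-anchored factor that induces proteasome genes, rose by 0.49 ± 0.12 (edgeR adjusted p = 0.0171). Mbtps2, the protease that releases ATF6, rose by 0.35 ± 0.11 and passed only narrowly (edgeR adjusted p = 0.0488). Of 13 genes of the PERK and ATF4 branch 9 were higher (69.2%), 1 lower (7.69%) and 3 did not pass, with a median of 0.77. The 3 were Atf4 itself (0.33 ± 0.13), Atf3 (0.86 ± 0.29) and Atf5 (0.12 ± 0.18), with edgeR adjusted p = 0.0927, 0.0585 and 0.719. Eif2ak3, the PERK gene, counted among the other sensors, did not pass either (0.24 ± 0.12, edgeR adjusted p = 0.189). These genes are named after their values were seen. The activity of PERK was not measured. Trib3, a pseudokinase induced by ATF4, stood at 71.9, 75.4 and 71.0 CPM after Wt1 siRNA, against 31.2, 44.2 and 23.3 CPM with control siRNA (1.15 ± 0.19, adjusted p = 0.00146). With the smallest p-values there, Sesn2, a stress-induced inhibitor of mTORC1 signalling, rose by 1.44 ± 0.11 and Asns, asparagine synthetase, by 1.11 ± 0.10 on the log2 scale. The lower gene was Cebpb, a C/EBP transcription factor, at -0.56 ± 0.13, named after its value was seen. Lists were described by counts and medians, and no test of the difference between them and the 34 genes was made.

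Several of these counts were smaller with 5 libraries, as were those over all genes, where leaving out 1 library gave 578 to 1253 higher and 785 to 1406 lower genes, against 1284 and 1459 with all 6. The lowest of these, in both directions, came without library 4. In the PERK and ATF4 list 5 genes were higher on leaving out library 1 or 3 and 4 on leaving out library 4, with 0 lower in that case. Without control library 2 the count in this list was larger, with 11 genes higher. Among the other folding genes 2 were higher on leaving out library 3 and 1 on leaving out library 4, while 2 were lower on leaving out library 1 or 5 and 1 on leaving out library 4. Among the other degradation genes 3 were higher on leaving out library 3 and 2 on leaving out library 4 or 5, and 1 was lower on leaving out library 1, 2, 3 or 4. In the translocon list 2 were higher on leaving out library 2 and 1 on leaving out library 4 or 6, and 3 were lower on leaving out library 4. In the COPII list 1 was lower on leaving out any library other than number 2. Among the other sensors 1 was higher on leaving out library 1, 3, 4 or 5, and 4 on leaving out control library 2. Under library size scaling 2 of the other folding genes, 3 of the other degradation genes and 1 gene of the translocon list were higher, and 4 COPII genes were lower.

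**Figure D4:**
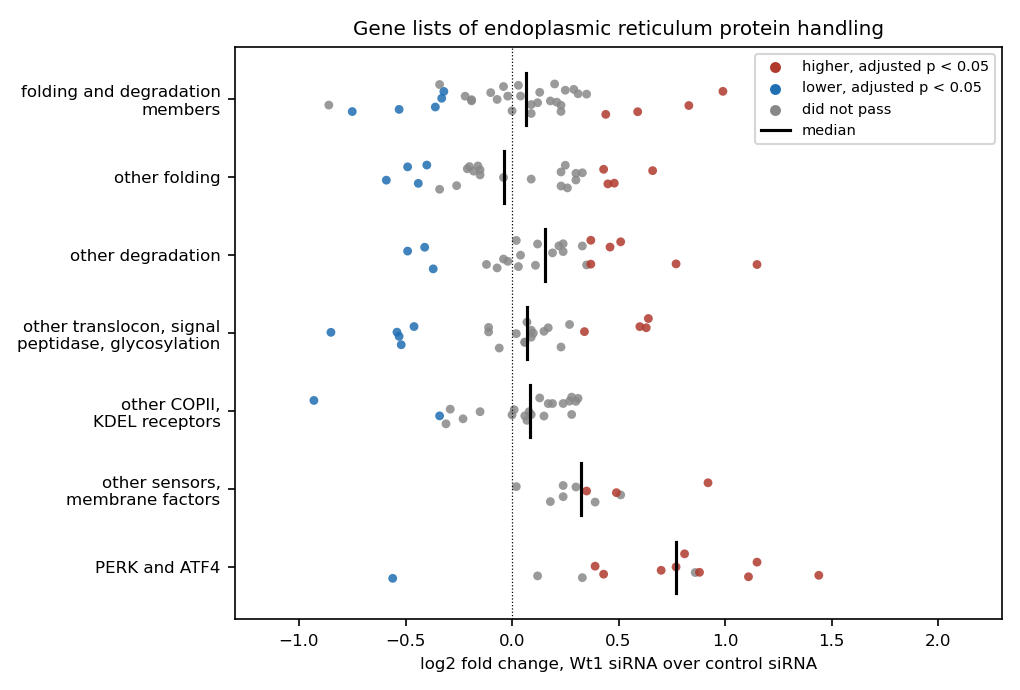
Each point is the log2 fold change of a gene (Wt1 siRNA over control siRNA, horizontal axis) in 7 lists, coloured by call, with the list median as a black line; vertical scatter within a row has no meaning. The medians lie between -0.04 and 0.33 for 6 lists and at 0.77 for the PERK and ATF4 list.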

How the data were processed

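The authors deposited raw read counts by Entrez gene ID, with no normalization, in 1 column per library. Per the submitters' processing notes the tools were CASAVA 1.8, bcl2fastq, TopHat and DESeq, with mm10 (GRCm38) as build and no stated role for each. How reads were counted, with which annotation and whether by strand, is not given in the sources used, so reads of overlapping genes and of paralogs (derlins, ERO1, ATF6 and SEC61 families) could be shared. IDs were matched to RefSeq GRCm38.p6 (23976) and GENCODE M21 (7); 78 stayed unnamed and were kept in the tests. Exon lengths are unions of GENCODE M21 basic exons.

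Counts were tested with edgeR 4.0.16 in R 4.3.3 (quasi-likelihood F test, TMM, filterByExpr, 14190 genes kept, group as the only term, Benjamini-Hochberg adjustment over all genes, threshold 0.05). CPM uses TMM library sizes. The SE was taken as |log2 fold change| over the root of the F statistic. The procedure was tested on simulated data. Pairs of libraries of the same group differed far beyond sampling noise (chi-square over its degrees of freedom 18.9 to 70.9, genes with at least 10 reads), so no pair was 1 library deposited again. The 12 alternatives were library size scaling, RLE size factors, DESeq2 1.42.0, limma-voom (limma 3.58.1), no filter, a stricter filter (CPM of at least 1 in 3 libraries) and leaving out each library. Members and lists were chosen with earlier results of these data known. Named were all members, with values in every library for those called or with a mean of at least 100 CPM, Wt1, and up to 3 called genes of smallest p from each other list. A few others were named after their values were seen, as said beside them. No column was left unused, and no sample was left out of the main comparison.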

Additional observations from a re-analysis of the deposited data

How the results depend on the processing

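No paired analysis was possible because the groups share no replicate numbers. Ero1l, Herpud1 and Hspa5 passed in all 12 alternatives; the other 6 called members did not, as given beside each. With all 6 libraries, the alternatives gave 4 or 5 higher and 4 or 5 lower members; leaving out 1 library gave 3 to 4 higher and 0 to 4 lower. Over all genes, leaving out 1 library gave 578 to 1253 higher and 785 to 1406 lower genes, against 1284 and 1459 with all 6; library size scaling gave 855 higher and 1829 lower, with a median log2 fold change of -0.08 over all genes and -0.02 over the members, and the same counts of 4 and 5 members. The causes were not tested, though fits that leave out a library have fewer samples.

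Members whose sign turned had all failed the test. Calr turned to 0.00 with limma-voom and with no filter, and to 0.13, 0.02 and 0.05 without control library 2, Wt1 siRNA library 4 and Wt1 siRNA library 6 (-0.08 to 0.13 over the 6 left-out fits). Dnajb9 turned to 0.06 and 0.04 without control library 1 and Wt1 siRNA library 5 (-0.19 to 0.06), Os9 to -0.01 without control library 1 (-0.01 to 0.30), and Selenok to 0.11 and 0.02 without control library 3 and Wt1 siRNA library 4 (-0.09 to 0.11). Pdia6 and Sec24d turned to -0.05 with library size scaling, and Sec24d also to -0.04, -0.01 and -0.00 without control library 2, Wt1 siRNA library 4 and Wt1 siRNA library 6 (-0.04 to 0.11). The DESeq2 count of higher genes among the other sensors was 5, against 3. The stricter filter removed Derl3, and gave 1 higher COPII gene. With no filter 1 COPII gene was lower.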
